A study of Mus musculus with 55 samples.

Results

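The 9 genes described here encode secreted inflammatory proteins and were measured in mouse small cell lung cancer organoids. They are the chemokines Ccl2, Cxcl1, Cxcl2 and Cxcl5 and the acute phase genes Lbp, Saa3, Cp, Lcn2 and C3. They were picked by symbol, with earlier results of the same RNA tables known. All 9 were among the 51912 genes of the table that compares a guide against Meis2 with a scrambled guide. Of the 15479 genes of the table that compares PRMK with PRM, 5 were members, and Cxcl1, Cxcl2, Cp and Lcn2 are not analysed here in that comparison. Because RNA values chose the genes, their RNA values are a description without a test. Peak lists played no part in the choice.

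The series held 55 samples, of which 12 RNA libraries in 4 groups of 3 and 26 peak libraries in 13 groups of 2 were analysed. All groups came from organoids with guides against Trp53 and Rb1 and a vector that expresses Myc, a genotype called PRM, injected into the left lung lobe of recipient mice, from which organoids were harvested again. PRMK adds a guide against Kmt2c, the gene of an H3K4 methyltransferase. The sgMeis2 and sgScramble groups both carry the PRMK plasmids, Kmt2c guide included, plus a guide against Meis2, the gene of a homeodomain transcription factor, or a scrambled guide. Peaks of lung PRM and lung PRMK organoids came from ATAC, which maps accessible DNA, and from CUT&Tag, in which an antibody guides a transposase to its target, here KMT2C or histone H3 methylated at lysine 4 (H3K4me1, H3K4me2 and H3K4me3). Organoids of PRM liver tumours had lists for H3K4me1, KMT2C and ATAC.

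The labels leave several points open. No label gives the age of an animal, the source of the nuclease, or whether replicates were separate animals or clones, so the spread between libraries may be technical. For the PRMK RNA samples, the plasmids given in the labels do not include one with a Kmt2c guide. The labels mention a stranded kit for PRM RNA alone, so kit and genotype cannot be told apart. The PRM columns are numbered 4 to 6 and the titles 3 to 5, and the column numbers are used here. Replicate 1 of the PRMK samples for H3K4me2, H3K4me3 and KMT2C lists the guide against Meis2 and replicate 2 the scrambled one, so each of these pairs mixes both.

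As background, chemokines are small secreted proteins that draw leukocytes along a gradient. CCL2 attracts monocytes through the receptor CCR2, and CXCL1, CXCL2 and CXCL5 attract neutrophils through CXCR2. Acute phase proteins are made mainly by the liver during inflammation and also by epithelial cells. Many of these genes are induced by cytokines through NF-kappaB and C/EBP transcription factors bound near their start sites.

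The 250 bases before the annotated start are shown for the members that matched the RefSeq promoter table (build GRCm38.p6), 6 of 9. Ccl2, Cxcl5 and Lbp had no match and are not shown. Capitals mark matches to the NF-kappaB consensus or to the C/EBP motif TTGCNNAA on either strand, each sequence runs 5′ to 3′ on the gene's strand, and Cp is shown for the second of its 2 annotated starts. The windows are chr5:90890995-90891244 (plus strand) for Cxcl1, chr5:90903649-90903898 (plus) for Cxcl2, chr7:46715677-46715926 (minus) for Saa3, chr3:19956999-19957248 (plus) for Cp, chr2:32387740-32387989 (minus) for Lcn2 and chr17:57228137-57228386 (minus) for C3.
Cxcl1: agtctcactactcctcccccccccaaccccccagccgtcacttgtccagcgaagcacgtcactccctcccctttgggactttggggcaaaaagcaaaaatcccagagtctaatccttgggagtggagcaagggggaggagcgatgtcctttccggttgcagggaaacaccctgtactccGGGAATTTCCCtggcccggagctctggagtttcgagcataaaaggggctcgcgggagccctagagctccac
Cxcl2: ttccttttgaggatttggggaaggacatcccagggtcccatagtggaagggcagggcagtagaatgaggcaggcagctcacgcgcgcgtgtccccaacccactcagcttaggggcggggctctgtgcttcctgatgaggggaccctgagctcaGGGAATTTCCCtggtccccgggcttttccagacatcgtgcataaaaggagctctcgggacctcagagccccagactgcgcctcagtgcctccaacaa
Saa3: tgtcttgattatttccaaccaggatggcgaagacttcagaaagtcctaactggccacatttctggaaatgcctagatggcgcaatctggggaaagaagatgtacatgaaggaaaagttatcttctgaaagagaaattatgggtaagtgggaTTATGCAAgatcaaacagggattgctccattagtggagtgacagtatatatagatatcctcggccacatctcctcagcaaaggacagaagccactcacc
Cp: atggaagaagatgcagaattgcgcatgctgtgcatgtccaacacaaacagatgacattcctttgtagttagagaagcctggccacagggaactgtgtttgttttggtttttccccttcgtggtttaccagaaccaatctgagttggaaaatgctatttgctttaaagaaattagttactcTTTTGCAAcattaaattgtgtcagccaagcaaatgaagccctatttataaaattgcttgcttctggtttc
Lcn2: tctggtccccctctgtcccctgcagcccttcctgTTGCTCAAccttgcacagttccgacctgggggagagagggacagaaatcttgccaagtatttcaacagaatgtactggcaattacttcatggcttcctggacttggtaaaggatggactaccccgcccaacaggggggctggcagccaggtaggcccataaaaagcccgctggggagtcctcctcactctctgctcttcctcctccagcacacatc
C3: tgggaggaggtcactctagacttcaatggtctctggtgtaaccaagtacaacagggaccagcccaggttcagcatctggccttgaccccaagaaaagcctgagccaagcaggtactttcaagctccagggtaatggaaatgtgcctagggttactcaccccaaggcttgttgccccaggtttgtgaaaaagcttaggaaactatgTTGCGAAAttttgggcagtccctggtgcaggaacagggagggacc

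The promoters of Cxcl1 and Cxcl2 hold the same stretch, read as GGGAATTTCC on the plus strand with an overlapping match on the minus strand. On the plus strand it ends 62 bases before the start of Cxcl1 and 88 bases before that of Cxcl2. The NF-kappaB consensus occurs in 7.25% of all 32851 promoter windows of this length and in none of the other 4 genes' windows. The C/EBP motif occurs in 9.56% of all windows and in 1 window each of Saa3, Cp, Lcn2 and C3. Its last base lies 92 bases before the start in Saa3, 63 in Cp, 209 in Lcn2 and 38 in C3. TGACAG, the core recognised by MEIS factors, occurs in 15.9% of all windows and among the members only in Saa3, 56 bases before the start. TGANTCA, the AP-1 motif, occurs in 6.75% of windows and among the members only before the first Cp start. TATAAA, the TATA box, occurs in 12.4% of windows and among the members only before the second Cp start, on overlapping positions of both strands. TTCNNNGAA, a STAT motif, occurs in 7.02% of windows and in no window of a member. These are matches of letters and show no binding.

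All 8 members with enough counts to be tested were lower in each of the 3 sgMeis2 libraries than in each of the 3 sgScramble libraries. Their median log2 fold change was -0.87, beside 0.0036 for all 16260 genes tested. Groups that do not overlap, with sgMeis2 lower, made up 7.93% of all genes tested. edgeR's quasi-likelihood test called no gene at a Benjamini-Hochberg adjusted p under 0.05, so the share called was 0.0% in either direction, with 761 genes at an unadjusted p under 0.05. DESeq2 called 22 genes, 3 higher (0.0185% of genes tested) and 19 lower (0.117%), and 6 of those 19 were members: Ccl2, Cxcl1, Cxcl5, Lbp, Saa3 and Cp. Without sgMeis2 library 3, edgeR called 46 of 16565 genes tested, 34 of them lower, and all 8 tested members were among them. As the same contrast chose the genes, nothing is read from any of these counts.

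Libraries are given in the order 1 to 3, as CPM, counts scaled by library size and TMM, and levels of different genes are not compared. Ccl2, the monocyte attractant, stood at 2.42, 2.33 and 1.55 CPM with sgMeis2 and 6.34, 5.35 and 5.16 CPM with sgScramble. Its log2 fold change of -1.41 (SE 0.21) was the lowest of the 8. Cxcl1, a neutrophil attractant, stood at 7.01, 7.72 and 5.46 CPM with sgMeis2 and 19.8, 15.5 and 11.1 CPM with sgScramble, a log2 fold change of -1.19 (SE 0.24). The lowest of its sgScramble libraries lay above all of its sgMeis2 libraries.

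Cxcl5, a related neutrophil attractant, stood at 23.5, 29.7 and 28.4 CPM with sgMeis2 and 53.5, 45.9 and 44.3 CPM with sgScramble. The log2 fold change was -0.82 (SE 0.12), and sgMeis2 library 1 was the lowest here. Cxcl2 was not tested, since it had only 4, 8 and 4 counts with sgMeis2 and 17, 6 and 5 with sgScramble. Its groups overlapped, and its highest value came from sgScramble library 1, so no difference was detectable at this depth.

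Lbp encodes the protein that carries bacterial lipopolysaccharide to CD14. It stood at 3.27, 3.52 and 1.82 CPM with sgMeis2 and 6.11, 7.25 and 6.31 CPM with sgScramble, a log2 fold change of -1.18 (SE 0.25). Saa3 encodes a serum amyloid A made outside the liver in mice. It stood at 31.4, 36.5 and 30.7 CPM with sgMeis2 and 57.6, 49.6 and 47.9 CPM with sgScramble, a log2 fold change of -0.65 (SE 0.11). Both genes were lowest in sgMeis2 library 3.

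Cp and Lcn2 act on iron: ceruloplasmin oxidises it for export, and lipocalin 2 binds the siderophores with which bacteria take it up. Cp stood at 18.4, 18.5 and 14.7 CPM with sgMeis2 and 29.6, 27.2 and 27.8 CPM with sgScramble, a log2 fold change of -0.71 (SE 0.12). Lcn2 stood at 34.1, 36.1 and 19.2 CPM with sgMeis2 and 58.9, 53.1 and 58.2 CPM with sgScramble, a log2 fold change of -0.93 (SE 0.22). C3, the central protein of the complement cascade, stood at 20.2, 19.1 and 12.5 CPM with sgMeis2 and 29.2, 24.5 and 28.6 CPM with sgScramble, a log2 fold change of -0.67 (SE 0.19). For these 3 genes sgMeis2 library 3 lay well below the other sgMeis2 libraries.

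**Figure D1:**
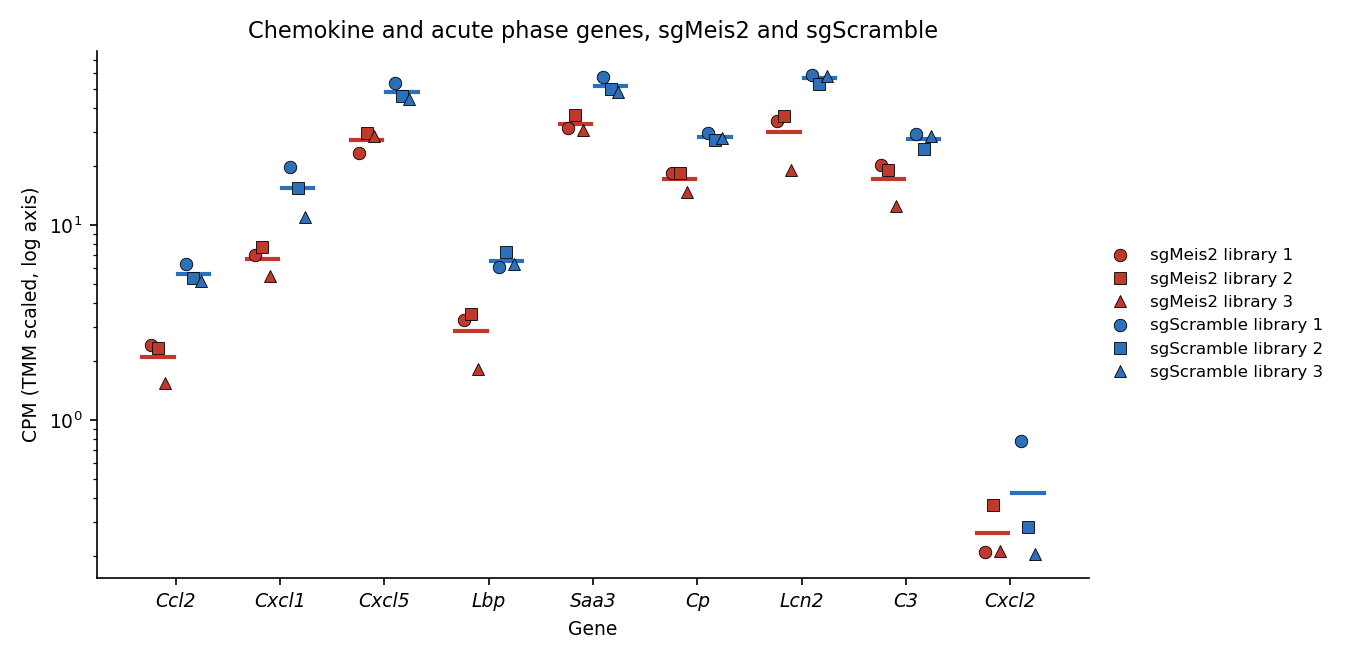
Levels of the 9 genes in CPM on a log axis, one point per library, red for sgMeis2 and blue for sgScramble, with the group mean as a line. The red points lie below the blue ones for each gene but Cxcl2, and sgMeis2 library 3 (red triangle) is the lowest point for 7 of the 8 tested genes.

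Relative to each gene's mean over the 6 libraries on the log2(CPM + 0.1) scale, the median over the 8 genes was -0.38 in sgMeis2 library 1, -0.26 in library 2 and -0.82 in library 3. In the sgScramble group it was 0.53, 0.37 and 0.37. Library 3 of sgMeis2 thus stood furthest from the sgScramble libraries, and it was also the lowest of the 6 for the targeted gene. Meis2 stood at 219, 224 and 136 CPM with sgMeis2 and 258, 227 and 233 CPM with sgScramble, a log2 fold change of -0.31 that edgeR did not call (adjusted p = 0.754). Kmt2c, Trp53, Rb1 and Myc stood at 128, 26.2, 20.5 and 639 CPM on average with sgMeis2 and 120, 27.8, 20.1 and 678 CPM with sgScramble. Being lowest in sgMeis2 library 3 was not particular to Meis2. That library was also the lowest of the 6 for Trp53 (20.7 CPM), Rb1 (19.2 CPM) and Myc (496 CPM), but not for Kmt2c (119 CPM). A part of library 3 in the members' values was not tested beyond its omission.

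The genes whose pattern over the 6 libraries was nearest to the members' mean were sought among 10254 other genes of at least 10 CPM, by the root mean square difference of centred log2 CPM. They were Cxcl15, a lung chemokine (0.089), Epas1, the gene of the hypoxia factor HIF-2alpha (0.096), and Fn1, the gene of fibronectin (0.14). Cxcl15 stood at 8.43, 10.8 and 6.64 CPM with sgMeis2 and 18.8, 15.4 and 16.4 CPM with sgScramble. On chromosome 5 it lies 32.9 kb from Cxcl5, in the same chemokine cluster as Cxcl1 and Cxcl2.

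Markers in the sgMeis2 and sgScramble libraries were those of neuroendocrine tumour cells. The 14 neuroendocrine markers summed to 3008 to 3292 CPM with sgMeis2 and 3153 to 3225 CPM with sgScramble. The 16 myeloid markers summed to 6.32 to 6.49 CPM with sgMeis2 and 5.29 to 5.78 CPM with sgScramble, and 6 of them (Adgre1, Itgam, Ly6g, Marco, S100a9 and Tyrobp) had no count in any library. The 10 fibroblast markers summed to 6.48 to 8.46 and 8.46 to 9.79 CPM, and the 8 endothelial markers to 7.22 to 7.45 and 7.84 to 9.65 CPM, in the same order of groups. Hepatocyte markers summed to at most 2.25 CPM, lymphoid markers to at most 1.37 CPM, and airway and alveolar markers to at most 8.52 CPM. In bulk RNA, fewer cells of a type and less RNA per cell cannot be told apart.

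Among receptors, Ccr2 stood at 74.9 ± 5.95 CPM (SD, n = 3) with sgMeis2 and 79.0 ± 8.66 CPM with sgScramble. Cxcr2 had 2 counts and C3ar1, the receptor for the C3a fragment, 1 count, each in sgScramble library 3 alone. Slc22a17, a receptor for lipocalin 2, stood at 45.7, 49.4 and 69.5 CPM with sgMeis2 and 40.9, 42.5 and 41.1 CPM with sgScramble, with no overlap and higher in sgMeis2, where 8.12% of genes tested did the same. Tlr4, Cd14 and Ly96, which form the lipopolysaccharide receptor, stayed at or below 1.24 CPM in every library.

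Lists of related genes, 8 in all, were counted in the same comparison, and edgeR called none of their members (0.0% of all genes tested). Of 8 tested among the 29 other chemokines, 6 had a log2 fold change below 0 (median -0.13). Among other acute phase genes it was 5 of 7 (median -0.38), and among complement genes 10 of 13 (median -0.38). In the NF-kappaB list it was 14 of 20 (median -0.14), in the C/EBP and IL-6 to STAT3 list 11 of 16 (median -0.07), and in the list of IL-1, TNF, TLR and IL-17 signalling 14 of 18 (median -0.15). The receptor list had 5 of 9 (median -0.08) and the iron list 4 of 10 (median 0.02). The median over all 16260 genes tested was 0.0036, and the share of all genes below 0 was not counted. As the lists were chosen with earlier results of these data known, nothing is read from these counts. Of the 101 list genes tested, DESeq2 called 2, Cxcl15 and the acute phase metalloreductase Steap4, both lower, as it did 0.117% of all genes tested.

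The list member with the lowest p is named for each list, none being called by edgeR. Cxcl15 (described above) led the chemokines and Steap4 the acute phase genes, with a log2 fold change of -0.73 (SE 0.13, edgeR adjusted p = 0.677). Cd55, which protects cells from complement, stood at 13.9, 14.6 and 13 CPM with sgMeis2 and 23.1, 19.3 and 17.9 CPM with sgScramble, with a log2 fold change of -0.54 (edgeR adjusted p = 0.754). Tlr2, a receptor of bacterial lipoproteins, had -1.34 at no more than 2.9 CPM, and Icam1, a leukocyte adhesion molecule and NF-kappaB target, had -0.68 at no more than 2.16 CPM. Cebpd, a C/EBP factor induced by IL-6, had -0.52, the TNF receptor Tnfrsf1a -0.43 and the ferritin heavy chain Fth1 -0.27 on the log2 scale.

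In the PRMK and PRM libraries the same genes varied mainly from library to library, and none of the 5 members analysed separated the groups. Groups that do not overlap made up 14.6% of the 13914 genes tested with PRMK lower and 15.1% with PRMK higher. edgeR called no gene (0.0% in either direction), with 2384 genes at an unadjusted p under 0.05. DESeq2 called 1218 genes, 676 lower in PRMK (4.86%) and 542 higher (3.9%), and of the members only Cxcl5, as lower. Nothing is read from these counts either. The median log2 fold change of the 5 members was -1.41, beside -0.0244 for all genes, and 0.6 without PRM library 6.

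Libraries are given in the order PRMK 1 to 3 and PRM 4 to 6. Ccl2 had 8.12, 16.4 and 16.7 CPM under PRMK and 17.3, 0.952 and 187 CPM under PRM. Its log2 fold change was -2.31 (SE 1.53) and 0.6 without PRM library 6. Cxcl5 stood at 10.49, 13.7 and 2.97 CPM in PRMK and 9.35, 31.9 and 289 CPM in PRM, with an SE of 1.35 around a log2 fold change of -3.6. That value was -1.18 when PRM library 6 was omitted. On chromosome 5, which holds Cxcl5, the median of 654 genes in PRM library 4 lay below that of the other libraries (-0.86 on the log2 scale, relative to all genes of that library), and the part of this shift in its Cxcl5 value was not tested.

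Lbp stood at 2.17, 1.88 and 0.356 CPM in PRMK and 1.78, 0.784 and 9.25 CPM in PRM, and its log2 fold change was -1.41 (SE 1.12), or 0.2 with PRM library 6 omitted. Saa3 stood at 116, 142 and 51 CPM in PRMK and 86.8, 0.448 and 241 CPM in PRM, and its log2 fold change was -0.08 (SE 1.49), or 1.24 with PRM library 6 omitted and 0.17 with PRMK library 3 omitted. C3 stood at 104.5, 192.5 and 75.4 CPM in PRMK and 38.5, 13.8 and 155 CPM in PRM, and its log2 fold change was 0.85 (SE 0.87), or 2.25 with PRM library 6 omitted. PRM library 6 held the highest value for 4 of the 5 genes, C3 being the exception, and PRM library 5 the lowest for Ccl2, Saa3 and C3.

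**Figure D2:**
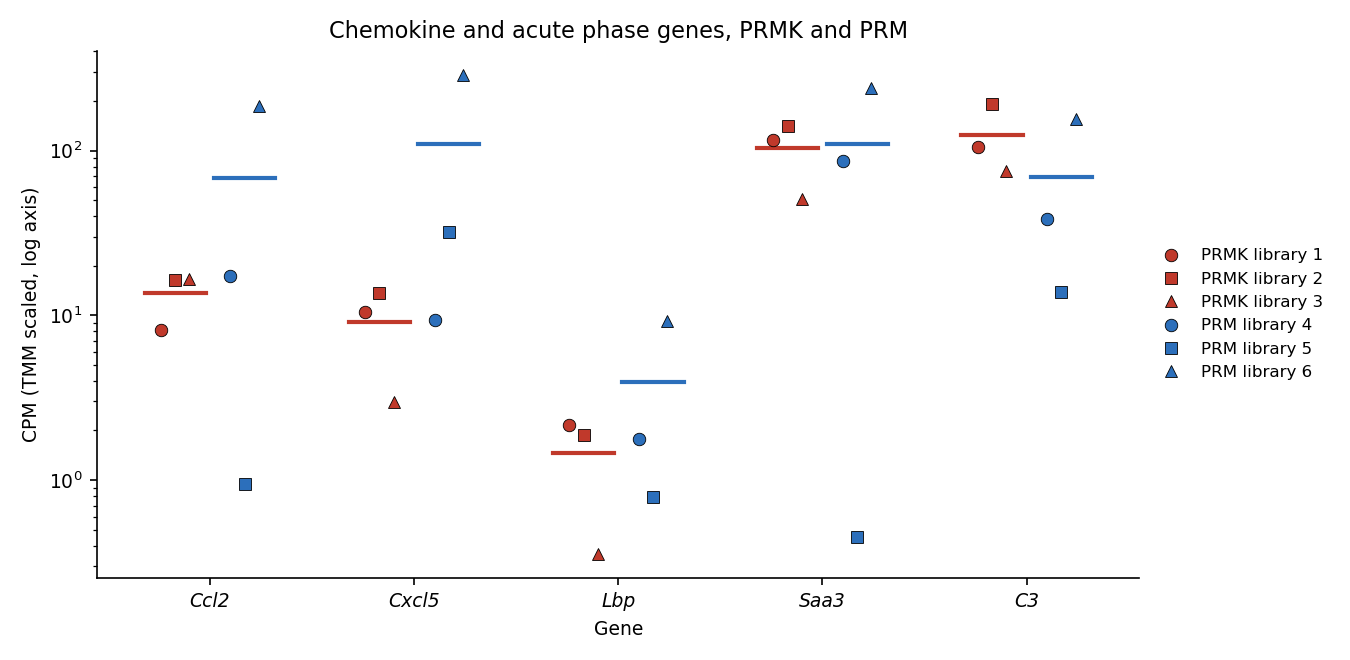
Levels of the 5 genes in CPM on a log axis, one point per library, red for PRMK and blue for PRM, with the group mean as a line. PRM libraries 5 (blue square) and 6 (blue triangle) lie at opposite ends for Ccl2 and Saa3, and the groups overlap for each gene.

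These 2 PRM libraries also stood apart in cell type markers. The 12 myeloid markers in this table summed to 521 to 778 CPM in PRMK and to 553, 4.93 and 105 CPM in PRM libraries 4 to 6. Fibroblast markers summed to 72.6 to 305 CPM in PRMK and to 348, 4.59 and 222 CPM in the same PRM libraries. Neuroendocrine markers summed to 3851 to 5921 CPM in PRMK and to 5775, 3235 and 136 CPM in PRM. Endothelial markers summed to 25.5 to 201 CPM in PRMK and 4.26 to 40.2 CPM in PRM, and lymphoid, hepatocyte and airway markers to at most 6.42, 15.2 and 15.3 CPM in any library. PRM library 5, with the lowest Saa3, Ccl2 and C3, thus held the lowest myeloid and fibroblast sums, and PRM library 6 the lowest neuroendocrine sum. Their part in the members' values was not tested.

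**Figure D3:**
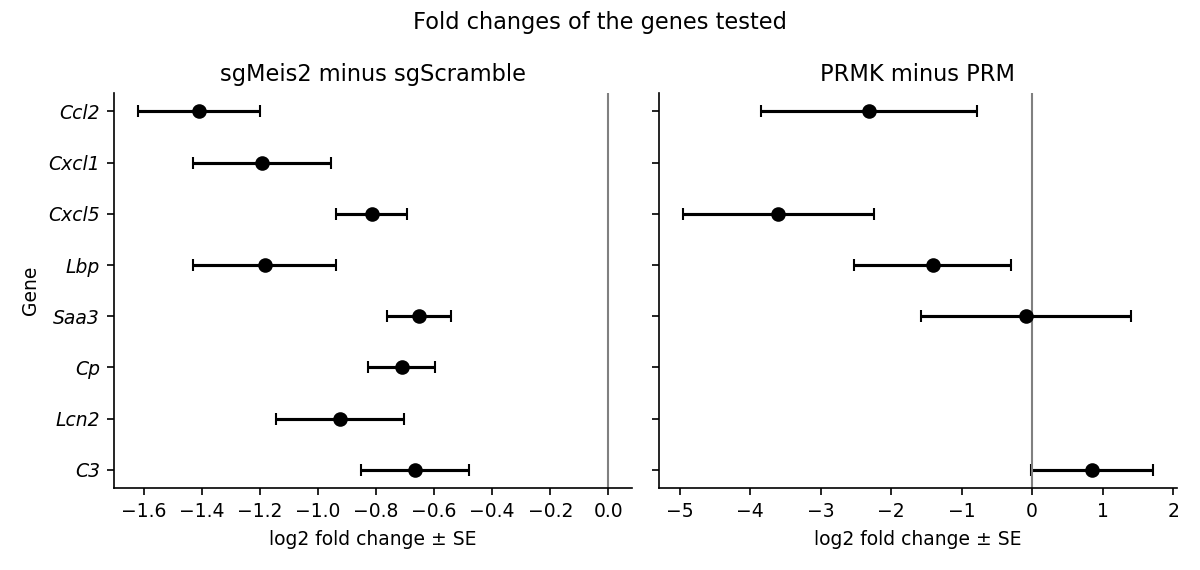
Fold changes on the log2 scale with standard errors from edgeR, at left sgMeis2 minus sgScramble for 8 genes and at right PRMK minus PRM for 5. The left panel runs from -1.41 (Ccl2) to -0.65 (Saa3), and the right panel, on its own scale, has errors of 0.87 to 1.53.

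Other genes in the PRMK and PRM libraries were counted from the same 8 lists. Slc22a17 stood at 310.5, 347 and 133 CPM in PRMK and 88, 36.9 and 18 CPM in PRM, and Ccr2 at 1.03 CPM or less. Tlr4 reached 13.2 CPM in PRM library 6 and Ly96 2.58 CPM, and Cxcr2, C3ar1 and Cd14 are not analysed here. edgeR called none of the 116 list genes tested (0.0% of all genes). DESeq2 called 6 as higher in PRMK, Slc22a17 among them, and 4 as lower, 8.62% of the list genes, beside 3.9% of all genes called higher and 4.86% called lower, so the share was near that of all genes. By lowest p the lists were led by Ccl28 (log2 fold change -4.58), Lrp2 (2.16), Agt (3.27), Cd55 (2.41), Nfkbie (1.36), Cebpg (-0.66), Traf3ip2 (0.83) and Tfrc (-1.65), none called by edgeR. Tfrc, the transferrin receptor, stood at 146, 137 and 196 CPM in PRMK and 394, 415 and 696 CPM in PRM. Meis2, not a target of the guides that define PRM or PRMK, stood at 139, 215 and 271 CPM in PRMK and 0.888, 1.46 and 17.3 CPM in PRM. For the checks of genotype, Kmt2c stood at 85.1, 84.4 and 105 CPM in PRMK and 113, 186.5 and 67.5 CPM in PRM. Its groups overlapped, so its RNA level did not show the edit. Rb1 stood at 33.9 and 10.8 CPM on average and Trp53 at 21.6 and 24 CPM. Myc, whose vector both groups share, stood at 272, 312 and 205 CPM in PRMK and 1139, 2304 and 2057 CPM in PRM. Its groups did not overlap, as for 14.6% of genes tested with PRMK lower, and the cause was not tested.

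The peak lists were read over each gene body and 10 kb to each side, and no test was made, since with 2 libraries against 2 the smallest p of an exact permutation test is 0.33. A peak in both libraries of one group and in neither of the other is called gained or lost, and its share of all 21883 protein-coding genes is given beside it. The lists differed in length. KMT2C had 9949 and 16681 peaks in lung PRM and 187682 and 134561 in lung PRMK, so 33% of all genes gained a KMT2C peak in PRMK. The median highest value of a KMT2C peak was 27 and 19 in lung PRM and 9 in each PRMK library, with depth not stated. PRMK is the group with the guide against Kmt2c, and whether its many low peaks reflect KMT2C binding was not tested. ATAC library 1 of PRMK had 593 peaks and the liver PRM ATAC libraries 345 and 141, and these 3 had no peak at a member.

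Ccl2 lies at chr11:82035577-82037452. Both lung PRM libraries had an H3K4me1 peak upstream of and over its lower end, at chr11:82031214-82035795 and chr11:82031402-82036201, and both liver PRM libraries had one at the same place. Neither PRMK library had an H3K4me1 peak in the window. The mark was thus lost in PRMK, with a peak in both lung PRM libraries and in neither PRMK library, as for 3.23% of all genes. A KMT2C peak lay inside this stretch in both lung PRM libraries, with total signals of 9220 and 13153, and in PRMK the only KMT2C peak in the window was in library 1, more than 8 kb beyond the other gene end. Total signal is the authors' value per peak, with depth not stated, so it is not compared between libraries.

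Cp lies at chr3:19956933-20009750 and showed the same H3K4me1 pattern. A peak just before its lower end was listed in both lung PRM and both liver PRM libraries, for example at chr3:19953075-19955874 in lung PRM library 1, and in neither PRMK library. H3K4me2 was listed there in all 4 lung libraries, in which 63.4% of all genes held a peak. These peaks were 4297 and 3430 bp wide in PRM and 1963 and 2347 bp in PRMK. The median widths of the same lists were 3721 and 3526 bp in PRM and 3083 and 3668 bp in PRMK. As depth is not stated and the PRMK pair mixes 2 guides, no difference is read from the widths. The stretch also covers the start of Gm42190. Library 2 of PRMK H3K4me1 had narrower peaks than the other lung libraries of this mark, with a median of 1419 bp beside 2734 to 2974 bp and 77.4 Mb covered beside 111 to 148 Mb. How far that bears on Ccl2 and Cp was not tested, and both genes lacked the peak in PRMK library 1 as well.

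C3 lies at chr17:57203967-57228136. It was the single member with a gained H3K4me2 peak in PRMK, as 1.75% of all genes had, at chr17:57218083-57220808 in library 1 and chr17:57217669-57220433 in library 2, inside the gene body. KMT2C peaks lay within it in both PRMK libraries, at chr17:57218759-57219384 in library 1, and KMT2C peaks overlapped it in both liver PRM libraries but in neither lung PRM library. An ATAC peak was listed in the same stretch in lung PRM library 1 and in PRMK library 2.

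**Figure D4:**
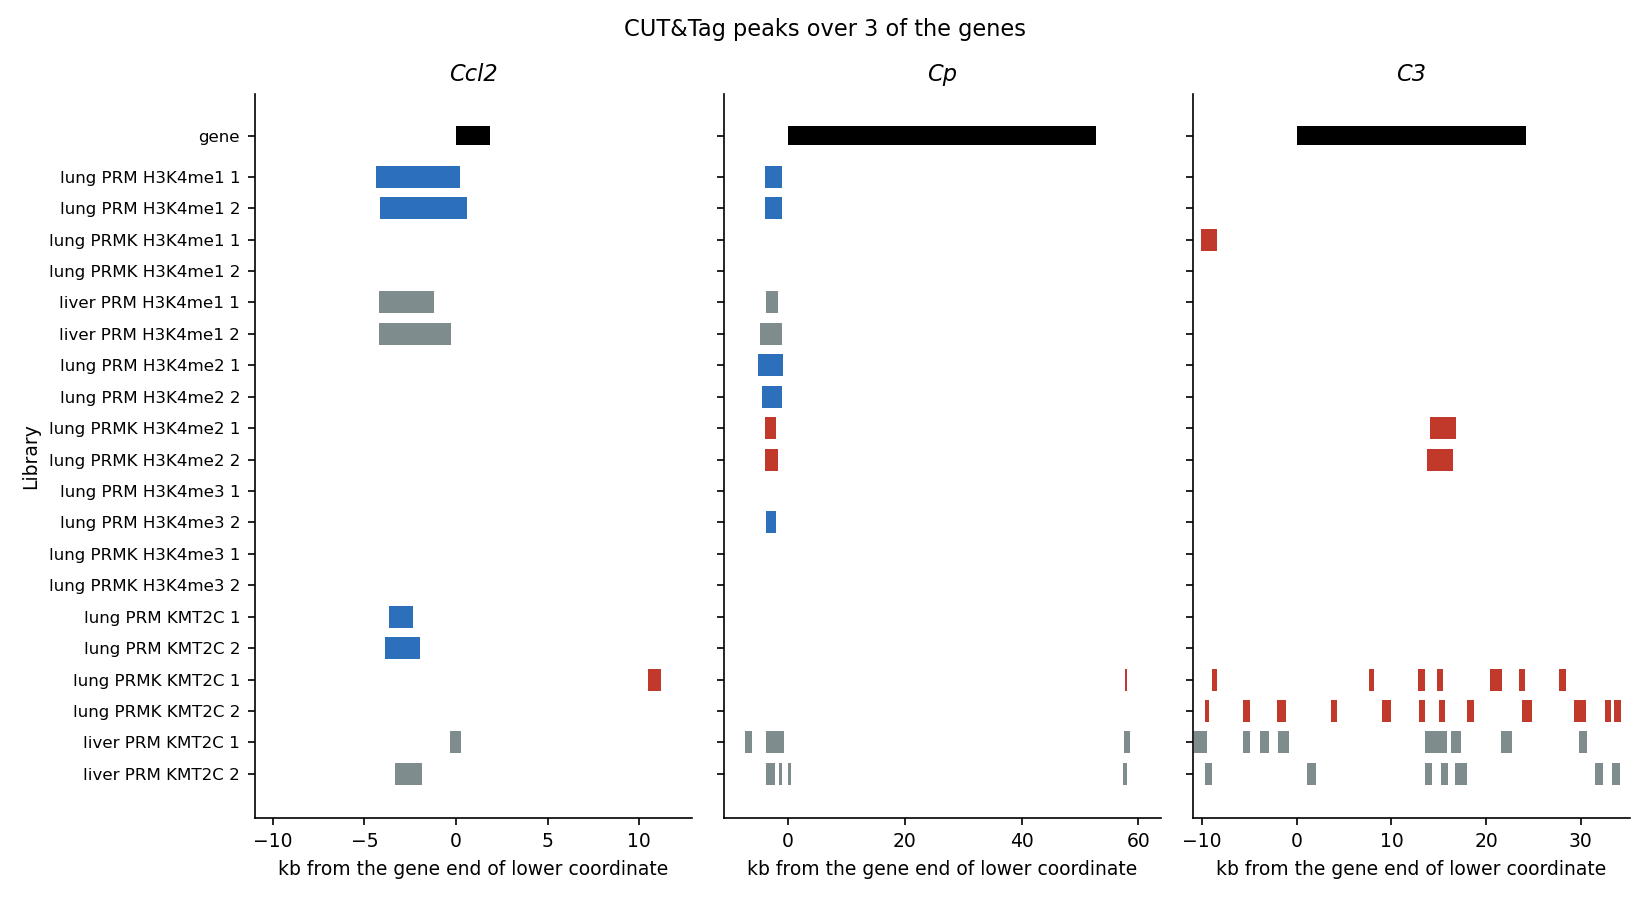
CUT&Tag peaks in each library (rows) at Ccl2, Cp and C3, by distance in kb from the gene's end of lower coordinate, with the gene in black, lung PRM in blue, lung PRMK in red and liver PRM in grey. H3K4me1 peaks before Ccl2 and Cp appear in the 4 PRM libraries and in no PRMK library, and the H3K4me2 peak inside C3 in the 2 PRMK libraries.

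Cxcl1 and Cxcl2 lie 10.8 kb apart on chromosome 5, at chr5:90891245-90893121 and chr5:90903899-90905938, so their windows share peaks. The promoter stretch of Cxcl1 shown above lay under an H3K4me2 peak in PRM library 1 and both PRMK libraries and under an H3K4me3 peak in both PRM libraries and PRMK library 2. That of Cxcl2 lay under an H3K4me2 peak in the same 3 libraries and under H3K4me3 in PRM library 1 alone. Of all promoter windows, 42.5%, 44.1%, 48.5% and 46.0% lay under H3K4me2 in PRM 1, PRM 2, PRMK 1 and PRMK 2, and 43.4%, 44.2%, 43.9% and 41.7% under H3K4me3. H3K4me1 was gained over Cxcl2 and 10 kb to each side, in both PRMK libraries and neither PRM library, as for 7.42% of all genes. A peak in each PRMK library lay over the Cxcl2 start. Cxcl5, at chr5:90759298-90761625, held H3K4me2 over its body in all 4 lung libraries, H3K4me3 in PRM library 1 alone, and no H3K4me1. The 3 Cxcl genes had no ATAC peak in any library.

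Lcn2, at chr2:32384637-32387739, had H3K4me2, H3K4me3 and KMT2C peaks in its window in all 4 lung libraries. The H3K4me2 and H3K4me3 peaks covered the starts of its neighbours 1110008P14Rik and Ptges2, and none lay over the Lcn2 body. In both lung PRM libraries the KMT2C peaks also covered those neighbours' starts alone. Both PRMK libraries had KMT2C peaks over the Lcn2 body as well. The Lcn2 promoter stretch lay under an H3K4me1 peak in PRMK library 1 and under KMT2C peaks in both liver PRM libraries. Among all promoter windows H3K4me1 covered 14.0% in PRMK library 1 and 7.14% in library 2, and KMT2C 33.9% and 40.4% in the liver libraries. Saa3, at chr7:46711998-46719615, had an H3K4me3 peak in all 4 lung libraries, and another over the body in PRM library 2. The peak in all 4 lay outside the body on the side of lower coordinates, beyond the downstream end of this minus-strand gene. The Saa3 window also takes in Saal1 and Saa4. Lbp, at chr2:158306493-158332852, held H3K4me2 over its body in library 2 of PRM and of PRMK, and no H3K4me3. KMT2C was gained in PRMK at C3, Cxcl1, Lbp and Saa3, beside 33% of all genes, and in liver PRM against lung PRM at C3, Cp and Lbp, beside 21.9%. The PRMK peaks at C3, Cxcl1, Lbp and Saa3 had highest values of at most 12. At Cxcl1 and Saa3 no KMT2C peak of PRMK library 1 overlapped one of library 2, whereas some did at C3 and Lbp.

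Counted over gene bodies, H3K4me3 peaks covered 3 and 2 of the 9 members in lung PRM libraries 1 and 2 and 0 and 1 in PRMK. The shares of all genes were 61.0% and 63.2% in PRM and 62.0% and 59.1% in PRMK. H3K4me2 covered 4 and 3 members in PRM and 5 and 6 in PRMK, beside 60.5%, 63.2%, 68.2% and 64.8% of all genes in the same order. H3K4me1 covered 1 and 2 members in lung PRM, 3 and 2 in PRMK and 1 in each liver PRM library. All genes had 33.9% and 31.1% in lung PRM, 41.9% and 34.5% in PRMK and 31.1% and 40.3% in liver PRM. The bodies of Ccl2, Cxcl1, Cxcl2, Cxcl5 and Lcn2 are only 1876 to 3103 bp long, and a short body is less likely to meet a peak. The shares of all genes are not matched for length, so no depletion is read from these counts.

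Within 10 kb, no member gained or lost H3K4me3 or ATAC in PRMK, where 0.302% of all genes gained and 0.905% lost H3K4me3, and 0.032% gained and 2.49% lost ATAC. A gained ATAC peak, or one in all 4 lung libraries, needs a peak in PRMK ATAC library 1. That library had 593 peaks, at 3.08% of all genes, so neither absence says anything about the members. Without it, genes with gained ATAC rose from 7 to 1658, and the members stayed at 0. No member lost H3K4me2 (0.247% of all genes) or KMT2C (0.0228%). Peaks in all 4 lung libraries were found at no member for H3K4me1 (31.6% of all genes) or ATAC (2.93%). They were found at Cp, Cxcl5, Lcn2 and Saa3 for H3K4me2 (63.4%), at Lcn2 and Saa3 for H3K4me3 (62.2%) and at Lcn2 for KMT2C (33.6%). Between liver and lung PRM no member gained H3K4me1 (1.46% of all genes) or lost it (0.251%), and none lost KMT2C (0.0457%). Within their windows, Ccl2, Cp and Lcn2 held H3K4me1 in all 4 of these PRM libraries (36.9%), and Ccl2 and Lcn2 held KMT2C in all 4 (33.6%).

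**Figure D5:**
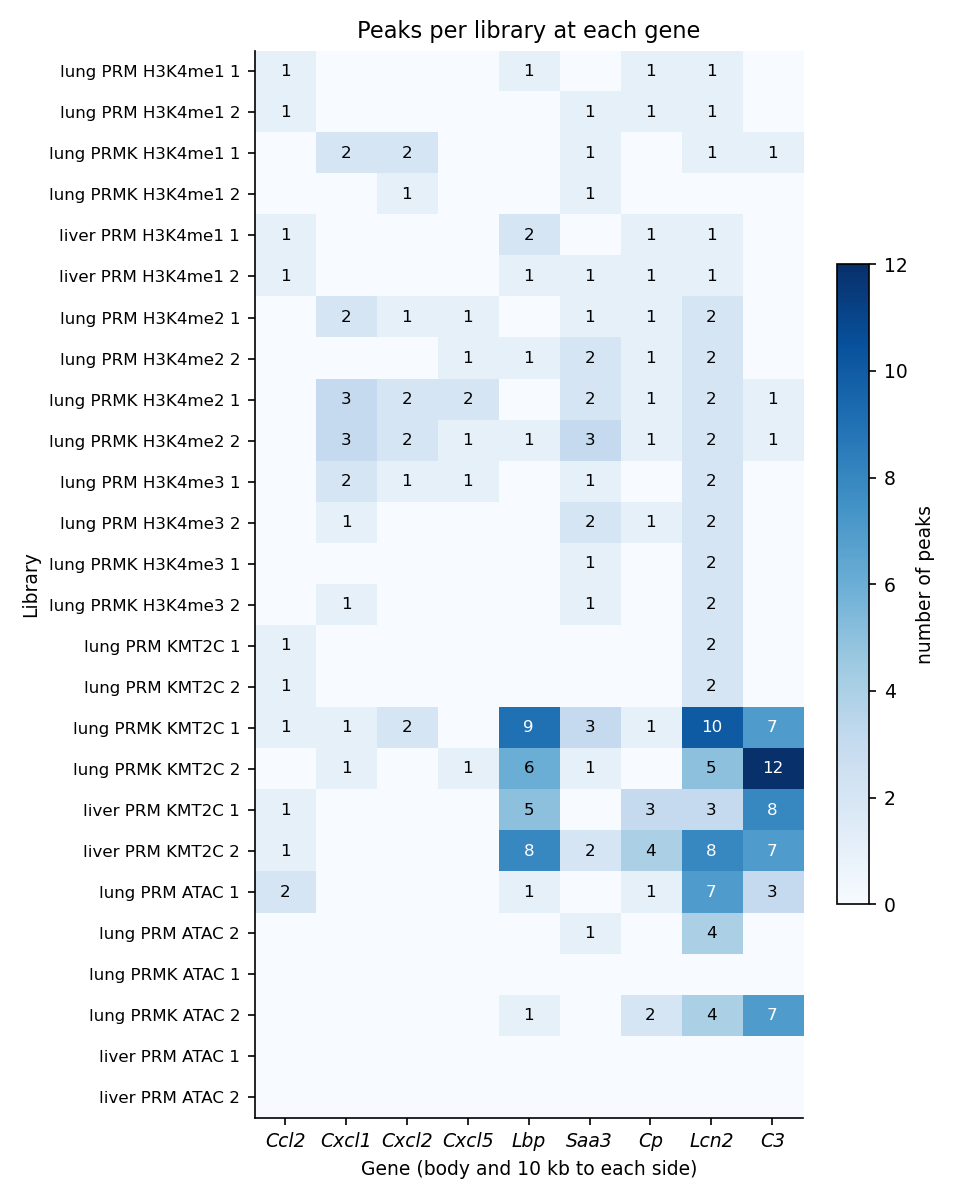
Number of peaks over each gene and 10 kb to each side (columns) in each of the 26 peak libraries (rows), with darker blue for more peaks and no number where there was none. KMT2C peaks at C3, Lbp and Lcn2 reach 12, 9 and 10 in the long PRMK lists, and the liver PRM ATAC rows are empty.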

How the data were processed

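The members and gene lists were chosen with earlier results of these data known. Reads were aligned with STAR 2.6.0a to GRCm38 for RNA, with Bowtie2 2.2.1 to mm10 for ATAC and with Bowtie2 to mm10 for CUT&Tag, whose peaks were called with SEACR, per the submitters' processing notes. For ATAC no peak caller is named there. The deposited RNA values used were raw counts per gene. The deposited CUT&Tag lists give the total and highest signal of each peak, and the deposited ATAC lists a score per peak. Peaks were called per library.

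Total counts were 18524493 to 24389041 per library in the sgMeis2 table and 12013253 to 24123055 in the PRMK and PRM table. Each table was fitted alone in R 4.3.3 with edgeR 4.0.16 (quasi-likelihood test, TMM, filterByExpr, adjusted p under 0.05) and, as an alternative, DESeq2 1.42.0. The tools were tested on simulated data. Standard errors are the log2 fold change divided by the square root of F. Named genes are the members, the edited genes, 7 receptors, the list member of lowest p where none was called, and the 3 nearest patterns. Peaks were analysed in Python 3.11.15 with pandas 2.3.3 and numpy 2.4.6, an overlap of 1 bp, protein-coding genes of GRCm38.p6 and the open part of each gapped ATAC peak. Deposited TPM and authors' fold changes were not used. Alternatives were other size factors, no filter, omitted libraries, a replicate block, and other peak windows, overlaps and thresholds.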

Additional observations from a re-analysis of the deposited data

How the results depend on the processing

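All 8 tested members kept a negative log2 fold change in sgMeis2 versus sgScramble under each alternative, with medians from -0.99 to -0.77 when a library was left out and -0.88 without a filter. edgeR called 0 genes there with RLE size factors, without a filter and with the replicate block (-0.89 for the members' median), DESeq2 called 22, and leaving out a library gave 0 to 46. Deviations of same-numbered libraries correlated at 0.015, 0.0029 and 0.04. Libraries 1 and 3 of sgMeis2 correlated best with their own number, and library 2 did not. No label says what a shared number marks, so these values cannot settle whether the samples were paired. No paired analysis was possible for PRMK versus PRM, because these groups share fewer than 2 numbers, or for peaks, which have no test. In PRMK versus PRM, DESeq2 called 1218 genes, and leaving out a library gave 0 to 796, the highest without PRM library 4. The members' median ran from -1.9 to 0.6 when a library was left out. Without PRM library 6, Ccl2, Lbp and Saa3 turned to 0.6, 0.2 and 1.24, and Cxcl5 and C3 moved to -1.18 and 2.25. Without PRMK library 3, Saa3 turned to 0.17. Without PRM library 5, Ccl2 and Saa3 stood at -2.89 and -0.66, shifts smaller than the SD between libraries of a group. In each case the cause was not tested. List genes called numbered 2 in sgMeis2 and 10 in PRMK by DESeq2, and 0 to 3 and 0 to 4 when a library was left out.

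Members with gained H3K4me1 in PRMK numbered 2 within 50 kb and 0 with peaks at or above the median of their list, and those that lost it 1 over the body and 1 within 50 kb. Members with gained H3K4me2 numbered 0 within 50 kb. In liver PRM, 1 member lost H3K4me1 over the body, and 0 gained KMT2C within 50 kb. With 1 library standing for a group in PRMK versus PRM, members ranged over 1 to 3 for H3K4me1 gained, 1 to 3 for H3K4me2 gained, 0 to 2 for H3K4me3 lost, 0 to 1 for KMT2C lost and 0 to 1 for ATAC lost, and in liver over 0 to 1 for H3K4me1 gained. The whole extent of the gapped ATAC peaks, tried after seeing the data, moved no count of members. Counts over all genes moved in 32 of 82 settings for PRMK and 9 of 32 for liver. Depth is not stated for the peak lists, and counts of 4 to 17 per library limit Cxcl2.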
